A study of Mus musculus with 7 samples.

Results

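The genes described here are 43 genes of the DNA replication machinery and its transcriptional control, measured in whole mouse cerebellum. They were taken by gene symbol from the 55450 genes in the deposited per-library files, and all 43 were found and passed the filter on low counts. By role they comprise 10 genes of origin licensing, 7 of origin firing, 5 of the polymerases and primase, 7 of the sliding clamp, its loader and lagging-strand synthesis, 5 of nucleotide supply, 3 of chromatin assembly behind the fork, and 6 genes of E2F factors and E cyclins.

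The study compared polyadenylated RNA of cerebella from C57BL/6 pups that were wild type for L3mbtl3 (WT) with that of pups labelled L3mbtl3 KO/+, heterozygous for a knockout allele of a gene for a malignant brain tumour (MBT) domain protein that binds methylated lysines. Both genotypes were taken at postnatal day 15, with 3 WT and 4 KO/+ libraries. The labels do not say which part of the gene is deleted or what sex or litter the pups had. They also do not say whether a library holds 1 pup or several. The p-values below therefore set the genotype difference against the variation between these libraries, which may differ from that between pups.

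Replication begins when the origin recognition complex, CDC6 and CDT1 load the MCM2 to MCM7 ring onto DNA, which licenses an origin. The CDC7-DBF4 kinase and cyclin E with CDK2 then help to turn the ring into an active helicase with CDC45 and the GINS complex, polymerase alpha with primase starts each strand, and PCNA holds the replicating polymerases on DNA. Most of these genes are transcribed in late G1 and S phase under E2F factors, which the retinoblastoma proteins hold back in resting cells. In the postnatal cerebellum a large dividing population is that of the granule neuron progenitors in the external granule layer, which leave the cell cycle and migrate inward during the weeks after birth. Dividing glial precursors also express these genes.

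Libraries held between 29248360 and 43761792 counts. L3mbtl3 itself was at 22.6, 26.8 and 23.2 CPM (counts relative to the library's total, scaled between libraries by edgeR) in WT replicates 1 to 3, and at 19.7, 17.4, 22.3 and 23.0 CPM in KO/+ replicates 1 to 4. The genotypes overlapped in KO/+ replicate 4, and the log2 fold change of KO/+ over WT was -0.23 (SE 0.118, unadjusted p = 0.0846, adjusted p = 0.957, edgeR). Reads outside a deleted part would not check the labels. The tissue label was checked against marker lists, and Cbln1 of mature granule neurons averaged 635 TPM (transcripts relative to the library's total, per length) and Pcp2 of Purkinje cells 2168 TPM. No gene of the 11 marker lists was at 0 in all libraries.

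Promoters of these genes are known for E2F sites and CCAAT boxes, the latter bound by NF-Y. RefSeq promoters (GRCm38.p6, 250 bases before to 50 bases after each listed start) were found for 37 of the 43 genes. No entry was used for Mcm4, Gins1, Gins2, Gins4, Pole and Ccne2. The 120 bases before the start are shown for 6 genes with a single listed start. Mcm6 has the most E2F words, and E2f7, Rrm1 and Chaf1a have 1 or 2 of them. Mcm10 and Orc6 had the widest and one of the narrowest spreads between libraries of a genotype and hold no E2F word here. Each reads 5′ to 3′ on the strand of the gene, and capitals mark an E2F word of 7 or 8 letters or a CCAAT box on either strand.
Mcm6 (chr1:128359706-128359825, minus strand): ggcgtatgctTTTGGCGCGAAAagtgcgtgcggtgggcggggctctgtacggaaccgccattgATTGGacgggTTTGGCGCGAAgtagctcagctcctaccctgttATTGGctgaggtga
E2f7 (chr10:110745319-110745438, plus strand): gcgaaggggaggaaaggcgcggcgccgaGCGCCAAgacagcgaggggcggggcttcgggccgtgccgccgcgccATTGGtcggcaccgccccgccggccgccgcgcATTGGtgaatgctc
Rrm1 (chr7:102441575-102441694, plus strand): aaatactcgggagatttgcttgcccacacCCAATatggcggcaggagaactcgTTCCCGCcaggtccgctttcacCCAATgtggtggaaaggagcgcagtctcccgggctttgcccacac
Chaf1a (chr17:56040296-56040415, plus strand): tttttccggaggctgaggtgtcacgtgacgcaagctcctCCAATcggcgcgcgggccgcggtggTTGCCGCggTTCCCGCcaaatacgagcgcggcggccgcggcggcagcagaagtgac
Mcm10 (chr2:5012792-5012911, minus strand): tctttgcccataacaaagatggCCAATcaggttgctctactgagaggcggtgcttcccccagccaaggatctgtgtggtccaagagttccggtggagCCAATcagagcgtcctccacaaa
Orc6 (chr8:85299512-85299631, plus strand): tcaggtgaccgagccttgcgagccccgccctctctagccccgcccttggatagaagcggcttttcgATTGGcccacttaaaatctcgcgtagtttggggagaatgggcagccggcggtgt

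The 8-letter E2F words searched, on both strands, were TTTCCCGC, TTTCGCGC, TTTGCCGC and TTTGGCGC, and the looser 7-letter words lack the first T. Of the 37 genes, 24 (64.9%) held a 7-letter word in the whole promoter, against 10.9% of 27025 genes with a RefSeq promoter. An 8-letter word was present in 14 of 37 (37.8%), against 2.6% of all genes. The CCAAT box was present in 56.8% against 41.1%, and the cell cycle homology region, searched as TTTGAA, in 18.9% against 20.2%. In Mcm6 the run TTTGGCGCGAAA holds overlapping words on both strands. These matches are descriptions of letters in a window and not of bound sites.

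Levels between genes are compared in TPM, which is per length. Pcna, the sliding clamp, was the highest of the 43 genes with a mean of 121 TPM over the 7 libraries, followed by Mcm7 at 62.3, Dut at 56.9, Orc6 at 41.6 and Rrm1 at 31.9 TPM. Orc1, the largest subunit of the origin recognition complex, was the lowest at 0.72 TPM, below E2f8 at 2.31 and Cdc6 at 2.45 TPM. Together the 43 genes took between 0.0611% and 0.124% of a library's counts.

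The most prominent feature of the replication genes was how far libraries of one genotype lay apart. The 43 genes summed to 1003 TPM in WT replicate 1, 1048 in WT replicate 2 and 562 in WT replicate 3, and to 621, 575, 877 and 987 TPM in KO/+ replicates 1 to 4. WT replicate 3 was thus below all KO/+ libraries, and KO/+ replicate 4 lay close to WT replicate 1. On the mean of log2 CPM over the 43 genes, WT replicate 3 was at 47.3% of the highest library, WT replicate 2, and KO/+ replicates 1 to 4 were at 57.3%, 51.3%, 81.1% and 93.1% of it. In bulk tissue, fewer dividing cells and less of these RNAs per cell cannot be told apart.

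**Figure D1:**
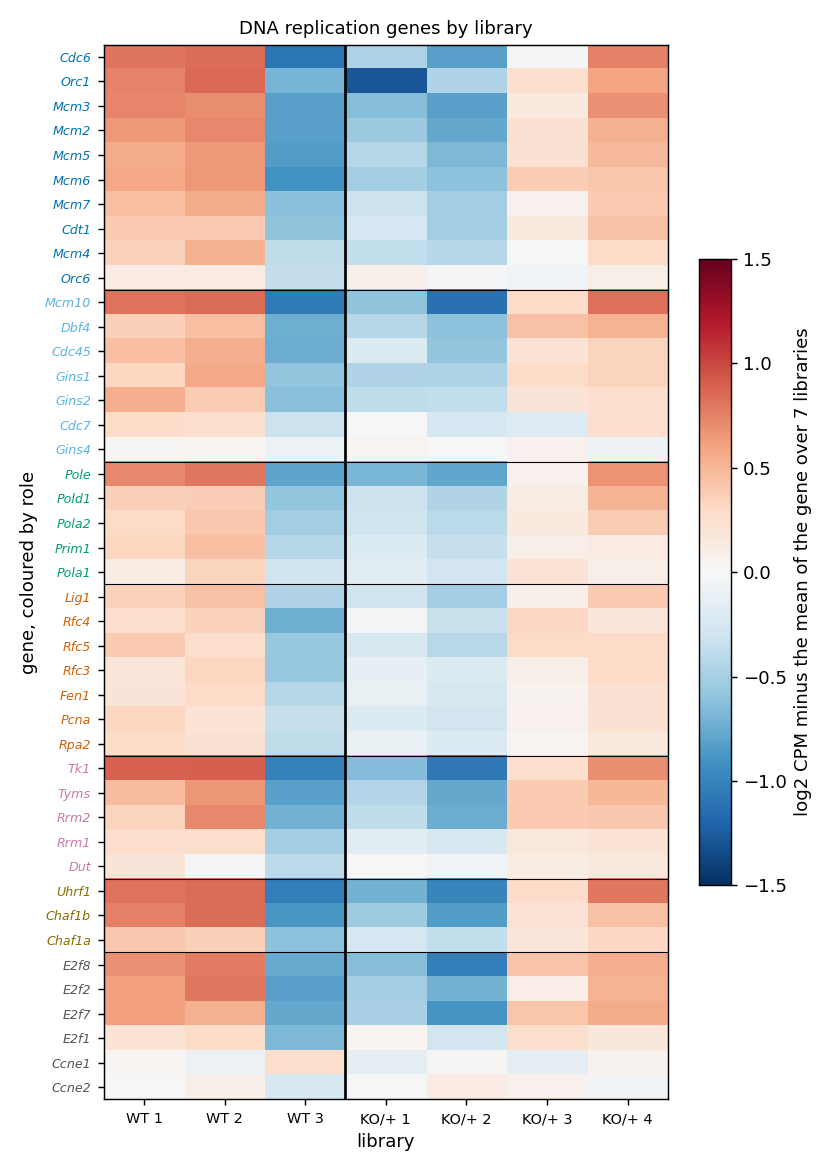
Log2 CPM of each replication gene minus that gene's mean over the 7 libraries (colour), with genes in rows grouped and coloured by role and libraries in columns, WT to the left of the vertical line. WT replicate 3 and KO/+ replicates 1 and 2 are below the mean for most genes. Gins4, Ccne2, Ccne1 and Orc6 vary least around it, with Orc6 lowest in WT replicate 3.

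The same libraries were low gene by gene. WT replicate 3 was the lowest WT library for 42 of the 43 genes (97.7%), and this held for 43.7% of the 16813 genes tested. KO/+ replicates 1 and 2 both lay below KO/+ replicates 3 and 4 for 38 genes (88.4%), against 25.5% of all genes, and both patterns held together for 38 genes (88.4%) against 17.5%. These patterns were chosen after the values were seen and are descriptions of these 7 libraries. WT replicate 3 was the lowest of all libraries for 34 genes, KO/+ replicate 2 for 7, and KO/+ replicates 1 and 3 for 1 each.

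The difference between the highest and lowest library within a genotype had a median of 0.949 on the log2 CPM scale over the 43 genes, or 1.93-fold, against 0.369, or 1.29-fold, over all genes tested (mean of the ranges in WT and KO/+). It was 1.07 in WT and 0.894 in KO/+, against 0.336 and 0.383 for all genes. The range was wider than the median of all genes in both genotypes for 37 of the 43 genes. Gins4 and Ccne2 were narrower in both, and Orc6, Rpa2, Dut and Ccne1 were narrower in KO/+ only. The biological coefficient of variation fitted by edgeR had a median of 28.1% over the 43 genes and 15.2% over all genes. Without WT replicate 3 the median range of the replication genes was 0.478, against 0.246 for all genes.

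**Figure D2:**
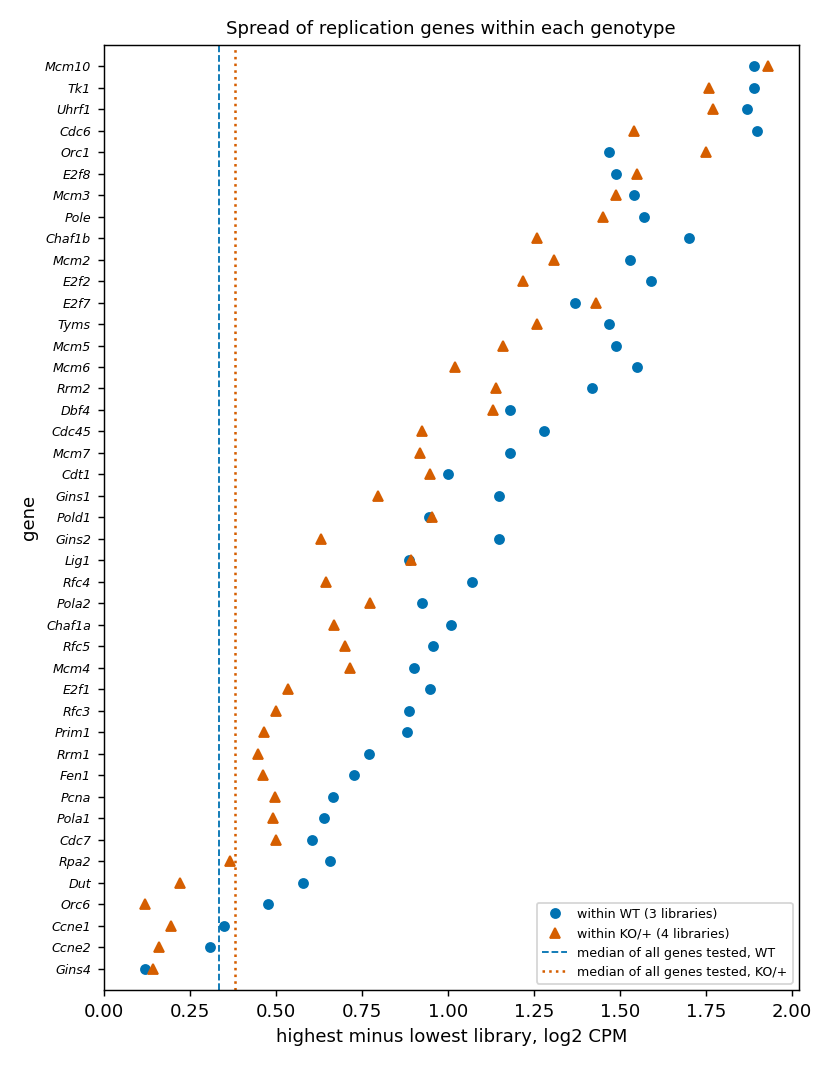
Highest minus lowest library on the log2 CPM scale for each replication gene within WT (circles, 3 libraries) and within KO/+ (triangles, 4 libraries), with the medians of all genes tested as vertical lines (0.336 in WT and 0.383 in KO/+). Mcm10, Tk1 and Uhrf1 have the widest ranges and Gins4, Ccne2 and Ccne1 the narrowest.

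Markers of several cell types also differed between libraries. Summed over 8 markers, granule neuron progenitor genes were at 273, 259 and 131 TPM in WT replicates 1 to 3 and at 128, 122, 205 and 240 TPM in KO/+ replicates 1 to 4. WT replicate 3 and KO/+ replicates 1 and 2 were the lowest for these markers too, and 6 of the 8 showed both patterns described above. Mfap4, the highest of them at a mean of 47.3 TPM, stood at 91.0, 72.5 and 22.2 TPM over the WT libraries, against 21.2, 16.0, 38.6 and 69.6 TPM over the KO/+ libraries. The 7 oligodendrocyte precursor markers summed to 274, 271 and 389 TPM in WT and to 184, 248, 300 and 244 TPM in KO/+, so WT replicate 3 was the highest there.

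Myelin genes were highest in WT replicate 3 (15240 TPM over 6 genes, against 9247 and 8509 in the other WT libraries). In KO/+ replicates 1 to 4 they summed to 9310, 13000, 12120 and 6794 TPM. Choroid plexus markers, led by Ttr, summed to 10.9, 1803 and 36.9 TPM in WT and to 2306, 1666, 1253 and 14.8 TPM in KO/+. Red blood cell markers were at 2782 to 3055 TPM in WT and 2727 to 6970 TPM in KO/+, with KO/+ replicates 1 to 3 the highest. Some other measures were high in libraries where the replication genes were low. The mitochondrial share of counts was 3.32%, 3.41% and 3.96% in WT replicates 1 to 3 and 4.74%, 4.55%, 3.75% and 3.16% in KO/+ replicates 1 to 4, lowest in KO/+ replicate 4 and highest in KO/+ replicates 1 and 2. Purkinje cell markers summed to 4781, 4891 and 5752 TPM in the WT libraries and 5276, 6636, 5422 and 4710 TPM in the KO/+ libraries. Microglia markers summed to 123, 101 and 151 TPM and to 149, 155, 139 and 98.0 TPM in the same order. Within WT, replicate 3 was the highest for these 3 measures, and within KO/+, replicate 4 was the lowest. Purkinje cell markers were nevertheless higher in KO/+ replicate 3 than in KO/+ replicate 1. Bergmann glia and astrocyte markers had the same extremes, at 1602 and 1493 TPM. Mature granule neuron markers did not, at 1887, 1762 and 1674 TPM in WT and 2297, 2121, 1745 and 2002 TPM in KO/+. Neither did endothelial and meningeal markers, for which WT replicate 2 was the highest WT library. The part of these in the spread of the replication genes was not tested.

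In the comparison of genotypes, no replication gene passed the test between KO/+ and WT, and the libraries of each genotype covered much the same range. By edgeR's quasi-likelihood test, 0 of the 43 genes passed an adjusted p of 0.05, as did 0% of all 16813 genes, and 0 had an unadjusted p under 0.05, where 3.15% of all genes did. DESeq2 and limma-voom also called 0 of them. The genotypes overlapped for all 43 genes, whereas 3.96% of all genes tested had no overlap (1.8% with all KO/+ libraries lower and 2.16% with all higher). The fitted log2 fold changes of KO/+ over WT had a median of -0.21, with 37 negative and 6 positive, beside a median of -0.0047 and 51.2% negative over all genes. They ran from -0.51 for Orc1 to 0.11 for Dut, with a median SE of 0.296 against 0.142 for all genes.

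That median moved with single libraries. It was -0.077 without WT replicate 1, -0.028 without WT replicate 2 and -0.46 without WT replicate 3. Without KO/+ replicates 1, 2 and 4 in turn it was -0.098, -0.058 and -0.35. Without WT replicate 3 all 43 fold changes were negative, beside 49.4% of all genes. An unadjusted p under 0.05 (edgeR) was reached by 7 of the 43 genes, against 5.75% of all genes. These were Prim1, Mcm4, Chaf1b, E2f2, Mcm7, Rpa2 and Gins2, and the smallest adjusted p of the 43 genes was 0.598. Across the 7 fits that left out 1 library, 22 of the 43 genes changed sign. With log2(TPM + 1) in place of counts, 62.6% of all genes had a negative fold change. On that scale 37 of the 43 genes were negative, but not the same 37: Pold1 and Chaf1a turned positive, at 0.0045 and 0.0077, and Rfc4 and Gins4 negative, at -0.025 each.

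**Figure D3:**
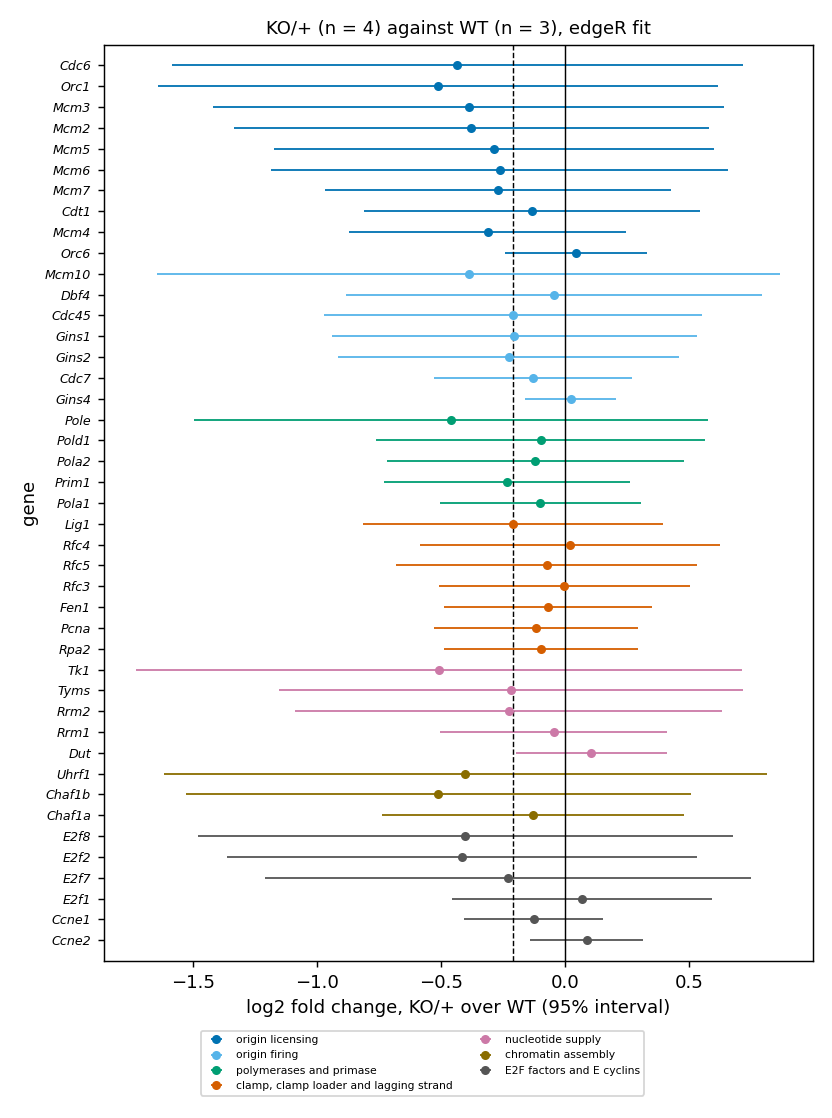
Log2 fold change of KO/+ (n = 4) over WT (n = 3) with its 95% interval for each replication gene, grouped and coloured by role, from the edgeR fit. The solid line is 0 and the dashed line the median of the 43 genes, -0.21; all intervals cross 0.

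The licensing genes had a median log2 fold change of -0.30, with 9 of 10 negative. Mcm7, a subunit of the helicase ring and one of the closest followers of the mean of all 43 genes, was at 96.5, 104 and 46.0 CPM in WT replicates 1 to 3 and at 56.8, 49.1, 74.1 and 92.9 CPM in KO/+ replicates 1 to 4. WT replicate 3 was the lowest of all 7 libraries. The log2 fold change was -0.27 (SE 0.304, unadjusted p = 0.402). Of the exonic 50-base windows of Mcm7, 18.1% are shared with other annotated genes, chiefly the pseudogene Gm5487, which had at most 0.118 CPM.

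Mcm4, which encodes another ring subunit and had the smallest p of the 43 genes, gave 29.7, 33.7 and 18.0 CPM in WT replicates 1 to 3 and 18.0, 17.4, 23.4 and 28.6 CPM in KO/+ replicates 1 to 4. KO/+ replicates 1 and 2 lay level with WT replicate 3, and KO/+ replicate 4 lay close to WT replicate 1. The fit put its log2 fold change at -0.31 (SE 0.243, unadjusted p = 0.236), with an interval of -0.87 to 0.25. The 6 ring genes Mcm2 to Mcm7 together were at 211, 229 and 95.1 TPM in WT and at 104, 94.1, 171 and 205 TPM in KO/+. Their products form one ring with 1 copy of each, but Mcm7 was the highest and Mcm4 the lowest of the 6 in TPM in all 7 libraries, 4.94 to 5.96 times apart.

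**Figure D4:**
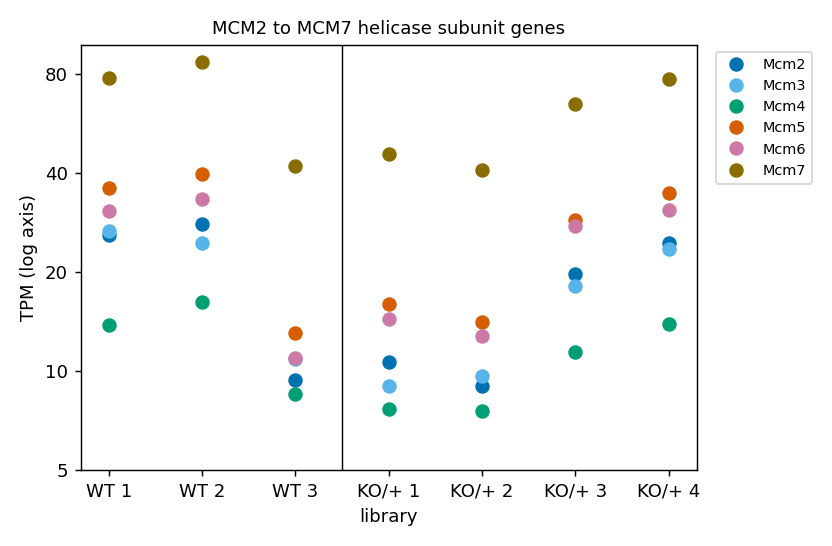
TPM of Mcm2 to Mcm7 (log axis) in each library, WT to the left of the vertical line and KO/+ to the right. All 6 genes are low in WT replicate 3 and KO/+ replicates 1 and 2, and Mcm7 stays highest and Mcm4 lowest in every library.

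Orc6, a subunit of the origin recognition complex, varied little between libraries other than WT replicate 3. It measured 27.0, 27.0 and 19.4 CPM in the WT libraries and 26.1, 24.4, 24.1 and 26.2 CPM in the KO/+ libraries, with WT replicate 3 alone below the rest. Its log2 fold change was 0.045 (SE 0.125, unadjusted p = 0.728), and it was -0.099 without WT replicate 3. The other licensing genes, Mcm2, Mcm3, Mcm5, Mcm6, Orc1 and the MCM loaders Cdc6 and Cdt1, had log2 fold changes of -0.51 to -0.13 and lay 2.06 to 4.41 times apart between the highest and lowest library. Cdt1, whose protein loads the ring together with CDC6, followed the mean of the 43 genes most closely. Its log2 CPM differed from that mean with an SD of 0.0565 over the 7 libraries, next to 0.0584 for Mcm7.

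On the mean of the ranges within WT and within KO/+, origin firing held both the widest and the narrowest gene. Mcm10, which helps to activate the helicase, stood at 13.9, 14.1 and 3.76 CPM over the WT libraries, against 5.18, 3.63, 9.57 and 14.0 CPM over the KO/+ libraries. WT replicate 3 and KO/+ replicate 2 were the lowest, and libraries spanned 3.70-fold within WT and 3.81-fold within KO/+. Its log2 fold change was -0.39 with a SE of 0.548 (unadjusted p = 0.498).

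Gins4, which encodes a subunit of the GINS complex, gave 20.2, 20.3 and 18.7 CPM in WT replicates 1 to 3 and 20.5, 19.9, 20.9 and 18.9 CPM in KO/+ replicates 1 to 4. All 7 libraries lay within 1.12-fold, and the interval of its log2 fold change ran from -0.16 to 0.21 around 0.023. Gins1 and Gins2, which encode partners in the same complex, spanned 2.24-fold and 2.25-fold. Cdc7, the kinase that fires origins, measured 44.6, 43.6 and 29.3 CPM in the WT libraries and 36.5, 31.0, 32.3 and 43.8 CPM in the KO/+ libraries, with a log2 fold change of -0.13 (SE 0.174). KO/+ replicate 3 lay near KO/+ replicate 2 for Cdc7, unlike for its activator Dbf4, where KO/+ replicate 3 was at 14.6 CPM and KO/+ replicate 2 at 7.05 CPM.

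Gins2 shares 67.3% of its exonic bases with the antisense gene Gse1. Gse1 stood at 128, 124 and 78.4 CPM over the WT libraries, against 66.6, 57.8, 99.2 and 133 CPM over the KO/+ libraries, low in the same libraries as Gins2, which gave 6.93, 6.17 and 3.09 CPM in WT replicates 1 to 3 and 3.65, 3.68, 5.45 and 5.68 CPM in KO/+ replicates 1 to 4. The strand setting of the counting is not given in the sources used here, so the part of Gse1 reads in Gins2 was not tested. Chaf1a shares 52.5% of its exonic bases with Ubxn6 and Fen1 84.2% with Gm10143 and Tmem258 in the same way. Ubxn6 stayed at 74.4 to 90.4 CPM and Tmem258 at 19.3 to 24.1 CPM. The level of Gm10143 was not examined.

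The polymerase and primase genes all had negative fold changes, with a median of -0.12. Prim1, the catalytic primase subunit, measured 18.6, 20.4 and 11.1 CPM in the WT libraries and 12.9, 11.8, 15.9 and 16.3 CPM in the KO/+ libraries. All KO/+ libraries lay between WT replicate 3 and WT replicate 1. The log2 fold change was -0.23 (SE 0.217, unadjusted p = 0.312).

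Pold1, the catalytic subunit of polymerase delta, stood at 30.9, 30.9 and 16.0 CPM over the WT libraries, against 19.3, 17.6, 25.9 and 34.2 CPM over the KO/+ libraries. KO/+ replicate 4 was above all WT libraries, and the log2 fold change was -0.097 (SE 0.289). Pole, the catalytic subunit of polymerase epsilon, spanned 2.98-fold over the libraries, and the polymerase alpha genes Pola1 and Pola2 spanned 1.56-fold and 1.90-fold.

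Among the clamp, loader and lagging-strand genes, the median log2 fold change was -0.074. Pcna gave 114, 105 and 71.5 CPM in WT replicates 1 to 3 and 79.0, 75.5, 95.5 and 107 CPM in KO/+ replicates 1 to 4. Again WT replicate 3 was the lowest library, and the log2 fold change was -0.12 (SE 0.18). Of its exonic 50-base windows 19.1% are shared with the processed pseudogene Pcna-ps2, and that pseudogene measured 0.0788, 5.71 and 0.14 CPM in the WT libraries and 3.53, 3.73, 5.51 and 0.169 CPM in the KO/+ libraries. WT replicate 2 and KO/+ replicates 1 to 3, where it was above 3 CPM, are the libraries with over 1000 TPM of choroid plexus markers, which was noticed after the values were seen.

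Rfc4, which encodes a subunit of the clamp loader, stood at 15.9, 16.7 and 7.95 CPM over the WT libraries, against 12.9, 10.5, 16.4 and 15.0 CPM over the KO/+ libraries. Its log2 fold change was 0.022 (SE 0.264), and WT replicate 3 was the lowest library. Rfc3, another loader subunit, the single-strand binding gene Rpa2, the flap nuclease Fen1 and the ligase Lig1 had log2 fold changes between -0.21 and -0.0017.

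Rfc5, a further loader subunit, gave different answers on the count and TPM scales. In counts it gave 16.9, 15.6 and 8.70 CPM in WT replicates 1 to 3 and 11.0, 9.70, 15.8 and 15.8 CPM in KO/+ replicates 1 to 4, with a log2 fold change of -0.074 (SE 0.264). In TPM it was at 17.6, 15.4 and 11.6 in WT and at 8.09, 7.77, 12.5 and 11.4 in KO/+. It was the only one of the 43 genes with an unadjusted p under 0.05 in limma on log2(TPM + 1), at an unadjusted p = 0.0274, and it was not called there. TPM divides by transcript length, and the transcript shares of Rfc5 are given below. Gins2 also differed between the scales. It was at 13.3, 11.2 and 5.26 TPM in WT and at 3.21, 2.63, 6.86 and 8.85 TPM in KO/+. In counts its log2 fold change was -0.23. Its retained-intron transcript Gins2-204 averaged 77.1% of Gins2 in WT and 62.2% in KO/+, and Gins2-201 averaged 20% and 37.2%. The genotypes did not overlap for either share.

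Of the nucleotide supply genes, 4 of 5 had negative fold changes and the median was -0.22. Dut, which clears dUTP, measured 44.4, 38.5 and 29.7 CPM in the WT libraries and 39.1, 37.2, 41.9 and 43.3 CPM in the KO/+ libraries. Its log2 fold change was 0.11 (SE 0.133), and it was -0.038 without WT replicate 3, the lowest library. Rrm1, the large subunit of ribonucleotide reductase, stood at 88.3, 88.6 and 51.9 CPM over the WT libraries, against 66.2, 62.3, 82.0 and 85.1 CPM over the KO/+ libraries, with a log2 fold change of -0.045 (SE 0.2).

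Tk1, the thymidine kinase of dividing cells, spread far more than Dut. It gave 10.8, 10.9 and 2.90 CPM in WT replicates 1 to 3 and 3.73, 2.78, 7.07 and 9.54 CPM in KO/+ replicates 1 to 4. WT replicate 3 and KO/+ replicate 2 were the lowest, and the highest library was 3.92 times the lowest. The log2 fold change was -0.51 (SE 0.533, unadjusted p = 0.368). Rrm2, the small subunit of the reductase, and Tyms, thymidylate synthase, spanned 2.74-fold and 2.79-fold.

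The 3 genes grouped as chromatin assembly had the lowest median log2 fold change of the 7 roles, -0.40. That median is the value of Uhrf1, which is not a subunit of chromatin assembly factor 1. Uhrf1, which recruits the maintenance methyltransferase to hemimethylated DNA, measured 42.0, 42.5 and 11.6 CPM in the WT libraries and 14.6, 12.04, 29.2 and 41.2 CPM in the KO/+ libraries. WT replicate 3 and KO/+ replicate 2 were nearly equal and the lowest, and the log2 fold change was -0.40 (SE 0.53, unadjusted p = 0.47). Of its exonic windows 15.4% are shared with Gm5648 or Gm15953, and Gm5648 had 0 CPM in all libraries.

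Chaf1b, a subunit of chromatin assembly factor 1, stood at 9.79, 10.3 and 3.16 CPM over the WT libraries, against 4.00, 3.24, 6.74 and 7.85 CPM over the KO/+ libraries. All KO/+ libraries lay above WT replicate 3 and below WT replicates 1 and 2, and the log2 fold change was -0.51 (SE 0.443, unadjusted p = 0.282). Chaf1a, the large subunit, gave 22.0, 21.2 and 10.9 CPM in WT replicates 1 to 3 and 13.8, 12.9, 18.8 and 20.5 CPM in KO/+ replicates 1 to 4, with a log2 fold change of -0.13 (SE 0.266).

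In the group of E2F factors and E cyclins, the factors varied with the other replication genes and the cyclins varied little. E2f1, an activating factor, measured 27.1, 28.4 and 14.7 CPM in the WT libraries and 23.9, 19.5, 28.2 and 26.5 CPM in the KO/+ libraries. WT replicate 3 was the lowest library, and the log2 fold change was 0.069 (SE 0.229). E2f2, another activator, and the repressors E2f7 and E2f8 spanned 3.04-fold, 2.84-fold and 3.46-fold and had log2 fold changes of -0.42 to -0.23.

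Ccne1 and Ccne2 encode the E cyclins that activate CDK2 at the start of S phase. Ccne1 stood at 11.0, 10.2 and 13.0 CPM over the WT libraries, against 9.81, 10.9, 9.81 and 11.2 CPM over the KO/+ libraries. It was the only one of the 43 genes for which WT replicate 3 was not the lowest WT library, and there it was the highest. Ccne2 gave 19.1, 20.1 and 16.2 CPM in WT replicates 1 to 3 and 19.1, 20.8, 19.97 and 18.6 CPM in KO/+ replicates 1 to 4. Their log2 fold changes were -0.13 (SE 0.121) and 0.087 (SE 0.099), and Ccne1 and Gins4 departed most from the mean of the 43 genes, with SDs of 0.535 and 0.45 on the log2 CPM scale. Mcm10 and Ccne2 followed at 0.438 and 0.435, Mcm10 with a wider range than the mean and Ccne2 with a narrower one.

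Spread and promoter words were set side by side as a description. The 14 genes with an 8-letter E2F word had a median range of 1.31 on the log2 CPM scale, and the 23 genes with a promoter and no such word 0.84. For the 7-letter word the medians were closer, 1.01 with it and 0.85 without. They were 1.28 and 0.875 for the CCAAT box, and 1.15 and 0.92 for TTTGAA, which was about as common as in all genes. Of the 3 genes with the widest ranges, Uhrf1 held an 8-letter word and Mcm10 and Tk1 did not. Orc6, Dut and Ccne1, with some of the narrowest ranges of the replication genes, held none either. Pola1 and Rfc3 did hold an 8-letter word, at ranges of 0.567 and 0.694. The printed promoters with an E2F word belong to Mcm6, E2f7, Chaf1a and Rrm1. The highest libraries of these genes were 2.94, 2.84, 2.02 and 1.71 times their lowest. Mcm10 and Orc6, printed without an E2F word, had ratios of 3.88 and 1.39.

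A further 68 genes of the same pathways were tested, and 0 passed the adjusted threshold. Of these 52 had negative and 16 positive fold changes, with a median of -0.089, where 51.2% of all genes were negative. Both library patterns held for 45 of 68, against 17.5% of all genes. The median range of the 68 genes was 0.387, near the 0.369 of all genes. By list it was 0.835 for the 7 replication-coupled chromatin genes and 0.382 to 0.418 for the others. Asf1a, a histone chaperone, was the only one with an unadjusted p under 0.05 (log2 fold change 0.24, SE 0.0867, unadjusted p = 0.0221, adjusted p = 0.957, edgeR).

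Among 38 other origin and fork genes, Orc2, a subunit of the origin recognition complex, measured 19.1, 22.8 and 16.9 TPM in the WT libraries and 18.6, 20.97, 22.7 and 21.8 TPM in the KO/+ libraries, and in counts its log2 fold change was 0.14 (SE 0.069, unadjusted p = 0.0782). Rnaseh2c, a subunit of ribonuclease H2, was the highest in this list at a mean of 72.04 TPM with a log2 fold change of 0.018, and the catalytic subunit Rnaseh2a had -0.11. Of the 11 other nucleotide supply genes, Ctps and Cad, both in pyrimidine synthesis, had -0.11 and -0.36, and Impdh2, of guanine nucleotide synthesis, -0.091. In the chromatin list, the histone chaperone Nasp, at a mean of 93.6 TPM, had -0.082, and the maintenance methyltransferase Dnmt1 -0.22. In the list of E2F, RB and CDK2 genes, Rbl2, a pocket protein of resting cells, had -0.092, Cdk2 -0.25 and the E2F partner Tfdp1 -0.034.

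At the transcript level, 108 of the 254 annotated transcripts of the 43 genes passed the filter, and 0 of them were called, as were 0% of all 44375 transcripts tested. At an unadjusted p under 0.05 there were 2, Fen1-201 and Chaf1b-202, where 2.71% of all transcripts fell under it, and limma-voom also called 0. The leading transcript held under 70% of the gene in 20 genes. Mcm7-201 made up 54.9% to 65.5% of Mcm7 and Mcm7-204 19.3% to 27.5%, and Dut-202 and Dut-201 made up 57.1% to 63.7% and 36.3% to 42.9% of Dut. Orc6-201 held 60.3% to 74.7% and Orc6-202 14.5% to 22.8% of Orc6, and Mcm5-203 held 48.6% to 72.8% and Mcm5-201 17.1% to 28.1% of Mcm5, with no separation of the genotypes. The leading transcripts of Tyms and Gins2 are annotated as targets of nonsense-mediated decay and as a retained intron.

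Of the transcript shares, that of Fen1-201 differed between the genotypes with the smallest p of the 43 genes, and it was singled out after its values were seen. Fen1 encodes the nuclease that removes the flaps of lagging-strand fragments. Fen1-201 made up 53.0%, 50.3% and 51.3% of Fen1 in WT replicates 1 to 3 and 31.6%, 35.0%, 33.6% and 35.6% in KO/+ replicates 1 to 4. The genotypes did not overlap, and the means were 51.5% ± 1.34 (SD, n = 3) and 33.9% ± 1.76 (SD, n = 4), a difference of -17.6 percentage points.

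In a test of transcript shares added after the data were seen (limma on arcsine square root shares of 26856 transcripts), Fen1-201 had an unadjusted p of 3.77e-05, rank 5 of all transcripts, and an adjusted p of 0.174, so it was not called. The adjusted p was 0.257 to 0.657 when 1 library was left out. Over all transcripts 3 were called (0.0112%), none of them of the 43 genes. Of 77 transcripts of the 43 genes, 10 (13%) had an unadjusted p under 0.05 in limma, against 3.98% of all transcripts. The genotypes did not overlap for 11 (14.3%), against 4.64% of all transcripts. Shares within a gene depend on each other, and Fen1 and Rfc5 each gave more than 1 transcript to both counts.

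Fen1-204 took up much of the difference, at 0%, 6.51% and 0% in WT and 20.8%, 15.3%, 14.4% and 8.74% in KO/+. Fen1-202 averaged 37.0% and 38.0%, and Fen1-203 9.31% and 13.3%. These 4 transcripts share the same coding exon (chr19:10199939-10201078, GRCm38, minus strand) and differ in their noncoding exons upstream, so the protein sequence does not differ between them. Total Fen1 stood at 32.1, 34.6 and 20.9 CPM over the WT libraries, against 25.9, 23.8, 29.04 and 32.8 CPM over the KO/+ libraries, with a log2 fold change of -0.067 (SE 0.183). The first exon of Fen1-204 (chr19:10204095-10204169) overlaps an exon of the antisense gene Tmem258. The part of Tmem258 and Gm10143 reads in the shares was not tested.

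**Figure D5:**
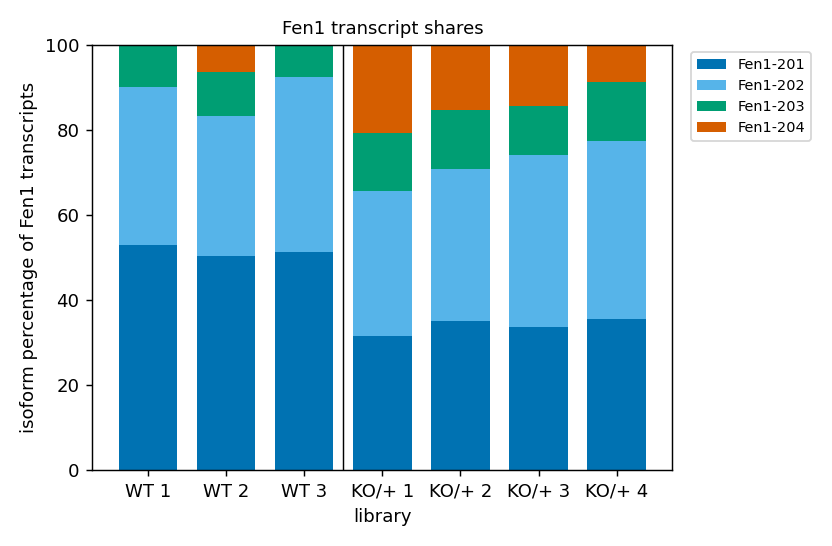
Isoform percentage of the 4 Fen1 transcripts, stacked to 100% in each library, WT to the left of the vertical line. Fen1-201 lies between 50.3% and 53.0% in WT and between 31.6% and 35.6% in KO/+, and Fen1-204 is at 0% in 2 WT libraries.

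Rfc5-201, the leading protein-coding transcript of Rfc5, made up 52.2%, 53.4% and 39.4% in WT and 66.2%, 64.3%, 70.3% and 77.0% in KO/+ (unadjusted p = 0.00313, adjusted p = 1, limma). The retained-intron transcript Rfc5-205 was at 35.9%, 26.0% and 24.2% in WT and at 13.1%, 18.0%, 7.57% and 0% in KO/+. For both transcripts the genotypes did not overlap. Rfc5-205 was not in the share test, and the shares of a gene's transcripts depend on each other. Isoform percentages are estimates from reads assigned between transcripts, and the uncertainty of that assignment was not modelled.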

How the data were processed

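Polyadenylated RNA of P15 cerebella was sequenced with a directional kit, per the labels' protocols. The submitters' processing notes name Trimmomatic 0.39, STAR 2.5.2a, RSEM 1.3.1 and the build GRCm38 (mm10); no strand setting is stated. The deposited values are RSEM's expected counts, TPM and the isoform percent of each gene's transcripts, per the file headers. The deposited tables of the whole series were not used.

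Expected counts were rounded, filtered with filterByExpr, scaled by TMM factors (0.9783 to 1.022) and tested with edgeR 4.0.16 (robust quasi-likelihood, no covariate, R 4.3.3) over all genes or transcripts, with Benjamini-Hochberg adjustment and a threshold of 0.05. Log2 CPM used a prior count of 2, and intervals are at 95%. Depth was 29248360 to 43761792 counts, and the members' lowest count was 14. No libraries were duplicates. Transcript shares (mean between 5% and 95%) were tested with limma 3.58.1. Gene models came from GENCODE M21. The scripts were tested on simulated data.

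The members and lists were chosen with earlier results of these data known. Named genes were the 2 highest per role in TPM, up to 3 per direction with the smallest p, the 3 widest and 3 narrowest in spread, and of each other list the 2 with the smallest p and the highest; a marker list gave its highest gene. Alternatives were DESeq2 1.42.0, limma-voom, TPM, other scaling and filters, a replicate block and leaving out each library.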

Additional observations from a re-analysis of the deposited data

Results flagged for a closer look

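The share of Fen1-203 within Fen1 in KO/+ replicate 3 was 11.62%, while the other KO/+ libraries lay close together at 13.63%, 13.94% and 13.88%. This library's distance from its nearest neighbour, relative to the range of the 4 KO/+ libraries, exceeded Dixon's 95% critical value for 4 samples. It was 1 of 47 groups examined, and chance flags about 1 in 20.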

How the results depend on the processing

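No replication gene or transcript was called under any alternative run. Over all genes, 1 was called with the replicate block, and leaving out 1 library gave 0 to 1 calls, with 1 without WT replicate 2, WT replicate 3 or KO/+ replicate 4. The median log2 fold change of the 43 genes was -0.17 with limma-voom and -0.30 with the replicate block, and between -0.46 and -0.028 with 1 library left out. No pairing by replicate number was seen: deviations of same-numbered libraries correlated at 0.322, -0.176 and -0.171 over 10519 genes. WT replicate 1 correlated best with KO/+ replicate 4 (0.341), and the highest of all pairs was WT replicate 3 with KO/+ replicate 2 (0.59). With so few libraries, these correlations cannot tell whether same-numbered libraries share a litter or batch. With 1 library left out, the median range of the 43 genes was 0.478 (without WT replicate 3) to 0.949.

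Of 323 alternative fold changes of the 19 genes given in full, 27 had the opposite sign and 0 passed the threshold. On log2(TPM + 1) and log2(TPM + 0.1), Rfc4 was at -0.0248 and -0.0249, Gins4 at -0.0253 and -0.026, Pold1 at 0.00452 and 0.00689, and Chaf1a at 0.00765 and 0.0124. With 1 library left out, the opposite signs and the other end of each range were as follows. Rfc4 was at -0.251, -0.0882 and -0.0344 without WT replicate 3, KO/+ replicate 3 and KO/+ replicate 4, and otherwise up to 0.197. Pold1 was at 0.0415, 0.0413 and 0.0295 without WT replicates 1 and 2 and KO/+ replicate 2, and at lowest -0.352. Rrm1 was at 0.0674, 0.0689, 0.00452 and 0.0291 without WT replicates 1 and 2 and KO/+ replicates 1 and 2, and at lowest -0.261. Without WT replicate 1, Pcna was at 0.00714 (lowest -0.296) and Chaf1a at 0.0343 (lowest -0.392). Without WT replicate 3, Orc6 was at -0.0993, Gins4 at -0.0162, Dut at -0.0379, E2f1 at -0.18 and Ccne2 at -0.000348, against highest values of 0.115, 0.0393, 0.239, 0.223 and 0.143. Without KO/+ replicate 3, Gins4 was at -0.00851 and E2f1 at -0.017. The cause was not tested. The SE of the replication genes, with a median of 0.296, limits what 3 and 4 libraries can show, and 42 of the 43 genes had more than 80 counts in every library.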
